A study of Mus musculus with 6 samples.

Results

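The RNAs described here are 9 mouse non-coding RNAs of the kind made by RNA polymerase III: the RNase P RNA Rpph1 and its relatives Rprl1, Rprl2 and Rprl3, the RNase MRP RNA Rmrp, the 7SK RNA Rn7sk, the 7SL RNA Rn7s1, the vault RNA Vaultrc5 and the rodent 4.5S RNA Rn4.5s. They were found on the arrays through the RefSeq transcript that each probe is assigned to, which gave 9 probes for 9 genes among 56605 probes, of which 32994 carried a gene name (22911 genes). Because they were chosen with the values of PRF and control arrays known, their differences between those groups are given as a description with no test. RNA came from C8-D1A, a cloned mouse astrocyte line, so all arrays rest on 1 clone. The PRF group is 3 arrays of cells given pulsed radiofrequency, an electrical stimulation in short high-frequency bursts used against neuropathic pain. The control group is 3 arrays of the same cells left untreated. Both groups had grown for 6 days in medium with 10% serum and then for 24 h without serum, in 3 independent experiments according to the series' design text. The sources used here give neither the stimulation's settings nor how long after it RNA was taken.

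RNA polymerase III makes short structured RNAs that end without a poly(A) tail and work inside protein particles. RNase P cuts the leader from precursor transfer RNAs, and RNase MRP, which shares most of its proteins, acts on precursor ribosomal RNA. The 7SK RNA holds the elongation kinase P-TEFb inactive through HEXIM proteins. The 7SL RNA is the scaffold of the signal recognition particle, which brings ribosomes making secreted proteins to the endoplasmic reticulum. Vault RNA is a component of the vault, a large barrel-shaped particle, and 4.5S RNA is an abundant short RNA of rodents related to the B1 repeat. The genes of RNase P, MRP and 7SK RNA carry their promoter in front of the transcript, with a proximal sequence element (PSE) bound by the SNAPc complex and an octamer bound by POU2F1, whereas 7SL and vault RNA genes also use elements inside the transcript.

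The RefSeq promoter table (assembly GRCm38.p6) holds a window of its own for 0 of the 9 genes, but the windows of the coding genes beside Rpph1 and Rmrp lie in front of them. The Parp2 window shares 106 bases with the annotated Rpph1 gene. The Ccdc107 window begins 55 bases beyond the end of Rmrp, and those 55 bases are not shown. These 2 windows are shown because Rpph1 and Rmrp are thought to be read away from these neighbours, so that the same stretch serves a gene on either side. Each has 300 bases, printed 5′ to 3′ on the + strand in the direction of the coding gene, and the capitals mark the octamer ATGCAAAT and the PSE core TCACCNTNA, searched on both strands.
Parp2 window beside Rpph1, chr14:50807666-50807965: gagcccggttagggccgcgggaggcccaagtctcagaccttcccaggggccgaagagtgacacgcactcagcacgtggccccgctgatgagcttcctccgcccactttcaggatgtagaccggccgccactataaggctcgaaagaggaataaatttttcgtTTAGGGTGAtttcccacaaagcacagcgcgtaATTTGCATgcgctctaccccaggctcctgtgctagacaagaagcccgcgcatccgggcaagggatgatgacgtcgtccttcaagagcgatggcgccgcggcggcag
Ccdc107 window beside Rmrp, chr4:43493115-43493414: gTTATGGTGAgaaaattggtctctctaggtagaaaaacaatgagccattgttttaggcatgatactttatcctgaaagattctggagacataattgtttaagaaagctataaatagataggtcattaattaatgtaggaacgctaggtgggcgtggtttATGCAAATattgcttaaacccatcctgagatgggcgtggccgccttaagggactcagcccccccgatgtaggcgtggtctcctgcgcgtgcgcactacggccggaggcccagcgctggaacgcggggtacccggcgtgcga
In both windows the PSE core lay on the strand opposite to the printed one, with 56 bases between it and the annotated end of the small RNA gene. The octamer lay 88 bases from the end of Rpph1, on the opposite strand, and 214 bases from the end of Rmrp, on the printed strand. The octamer was present in 1.74% of all 32817 promoter windows of this length, the PSE core in 3.20% and both in 18 windows. The motif letters were chosen with the known form of such promoters in mind, and a match is a description of the letters and not a measured binding site.

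Of all probes, 59.5% to 63.9% were well above background on an array, and all 6 arrays lay on 1 slide and were scanned together. Of 10 astrocyte markers, 8 were well above background on all 6 arrays, and Slc1a3 and Gja1 were so on no array. So were 5 of 5 oligodendrocyte, 3 of 5 neuron and 2 of 5 microglia markers on all 6 arrays, and Aif1, Cx3cr1, P2ry12 and Rbfox3 were on none. The summed signal of the microglia markers, relative to the array's 75th percentile, was 12.7 to 17.4 on PRF arrays and 8.44 to 8.88 on control arrays, and that of the astrocyte markers was 184 to 190 on PRF arrays and 162 to 174 on control arrays. The neuron markers summed to 23.8 to 28.3 on PRF arrays and 22.7 to 25.6 on control arrays, and the oligodendrocyte markers to 73.6 to 79.9 and, on control arrays, 64.0 to 69.9. All but the neuron sum did not overlap between the groups, and their part in the results below was not tested. In RNA from a whole culture, a change in the number of cells of a kind and a change in RNA per cell cannot be told apart.

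All 9 small RNAs were brighter on every PRF array than on any control array. Of the 34838 tested probes 27.7% showed this pattern, and 22.5% showed the reverse. Among all tested probes limma called 31.1% at an adjusted p below 0.05, 18.4% higher and 12.7% lower. Nothing about the 9 RNAs is read from these shares, since they were chosen on this contrast. All 9 were well above background on all 6 arrays, so none passed the filter through the PRF arrays alone. The difference ran from 0.51 for Rn4.5s to 6.07 for Rprl3 on the log2 scale, with a median of 4.29 over the 9 genes, against a median of 0.02 over all tested probes. Of the 9, 8 were at least 2-fold higher, as were 8.59% of tested probes. Levels below are log2 signals relative to the array's 75th percentile, and a level of 1 probe cannot be set against that of another.

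Of the 9, the RNase P RNAs had the largest differences. Rpph1, the RNA of the enzyme itself, had levels of 6.32, 6.45 and 5.99 on the PRF arrays, against 0.49, 0.05 and 0.34 on the control arrays. The lowest PRF array lay 5.50 above the highest control array, while the arrays of a group spanned 0.46 in PRF cells and 0.44 in control cells. The group means were 6.26 ± 0.24 in PRF cells and 0.29 ± 0.22 in control cells (SD, n = 3 each), a difference of 5.96 (SE 0.16) or 62.3-fold. On the scale of the scanner its signal was 35207 to 50654 on PRF arrays and 658 to 949 on control arrays.

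Rprl1, Rprl2 and Rprl3 are annotated as RNase P RNA genes resembling Rpph1. Rprl2 had levels of 4.51, 4.62 and 4.24 in PRF cells, against -1.46, -1.83 and -1.50 in control cells, a difference of 6.05 (SE 0.14, 66.5-fold). Rprl3 had 4.96, 5.00 and 4.65 in PRF cells, against -1.08, -1.36 and -1.16 in control cells, a difference of 6.07 (SE 0.12, 67.1-fold). The differences of Rprl2, Rprl3 and Rpph1 lay within 0.11 of each other, less than their standard errors. Together with Rprl1 these genes are regarded as near-identical copies, and 1 RNA may have reached several of the probes. The values therefore do not tell which copies carried the signal.

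Rprl1 was close to background in control cells. Its levels were 1.80, 1.92 and 1.70 in PRF cells, against -3.53, -3.99 and -3.52 in control cells, a difference of 5.49 (SE 0.14, 44.9-fold). The spot's median signal was 48.8 to 61.1 times the local background on PRF arrays and 1.97 to 2.24 times on control arrays. With normexp background correction the difference was 4.39. For Rpph1 that alternative gave 5.82.

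Rmrp, the RNA of RNase MRP, was the steadiest of the 9 RNAs but Rn4.5s in control cells. It had levels of 3.80, 4.10 and 3.69 in PRF cells, against -0.21, -0.20 and -0.07 in control cells. The means of 3.86 ± 0.21 in PRF cells and -0.16 ± 0.08 in control cells (SD, n = 3 each) differed by 4.02 (SE 0.12), which is 16.2-fold.

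Rn7sk, the RNA that restrains P-TEFb, had levels of 7.84, 7.99 and 7.61 in PRF cells, against 3.54, 3.38 and 3.65 in control cells. The difference was 4.29 (SE 0.12, 19.6-fold). Only 84 to 142 probes were brighter on PRF arrays, against 3781 to 4338 on control arrays. Its signal on PRF arrays reached at most 20.4% of the scanner's saturation value.

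Rn7s1, the signal recognition particle RNA, had levels of 7.37, 7.41 and 7.18 in PRF cells, against 4.44, 4.22 and 4.66 in control cells, a difference of 2.88 (SE 0.13, 7.36-fold). Near-identical 7SL copies exist, and the probe may bind their RNA as well. Vaultrc5, the vault RNA, had 0.79, 0.80 and 0.49 in PRF cells, against -2.72, -3.03 and -2.88 in control cells. Its difference was 3.57 (SE 0.12, 11.9-fold), and 2.77 with normexp background correction. Its spots were 25.1 to 32.4 times the local background on PRF arrays and 3.08 to 3.50 times on control arrays.

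Rn4.5s stood apart from the other 8 by a small difference. It had levels of 8.84, 9.13 and 8.92 in PRF cells, against 8.45, 8.42 and 8.49 in control cells, and the lowest PRF array lay 0.35 above the highest control array. The difference was 0.51 (SE 0.09, 1.42-fold), against 0.32 with spike-in scaling. Its probe was among the brightest of every array, with at most 1 brighter probe on PRF arrays and 6 to 9 on control arrays. No spot of the 9 RNAs was marked as saturated, and the median signal of Rn4.5s was 32.0% to 35.8% of the saturation value on PRF arrays and 25.0% to 27.6% on control arrays.

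**Figure D1:**
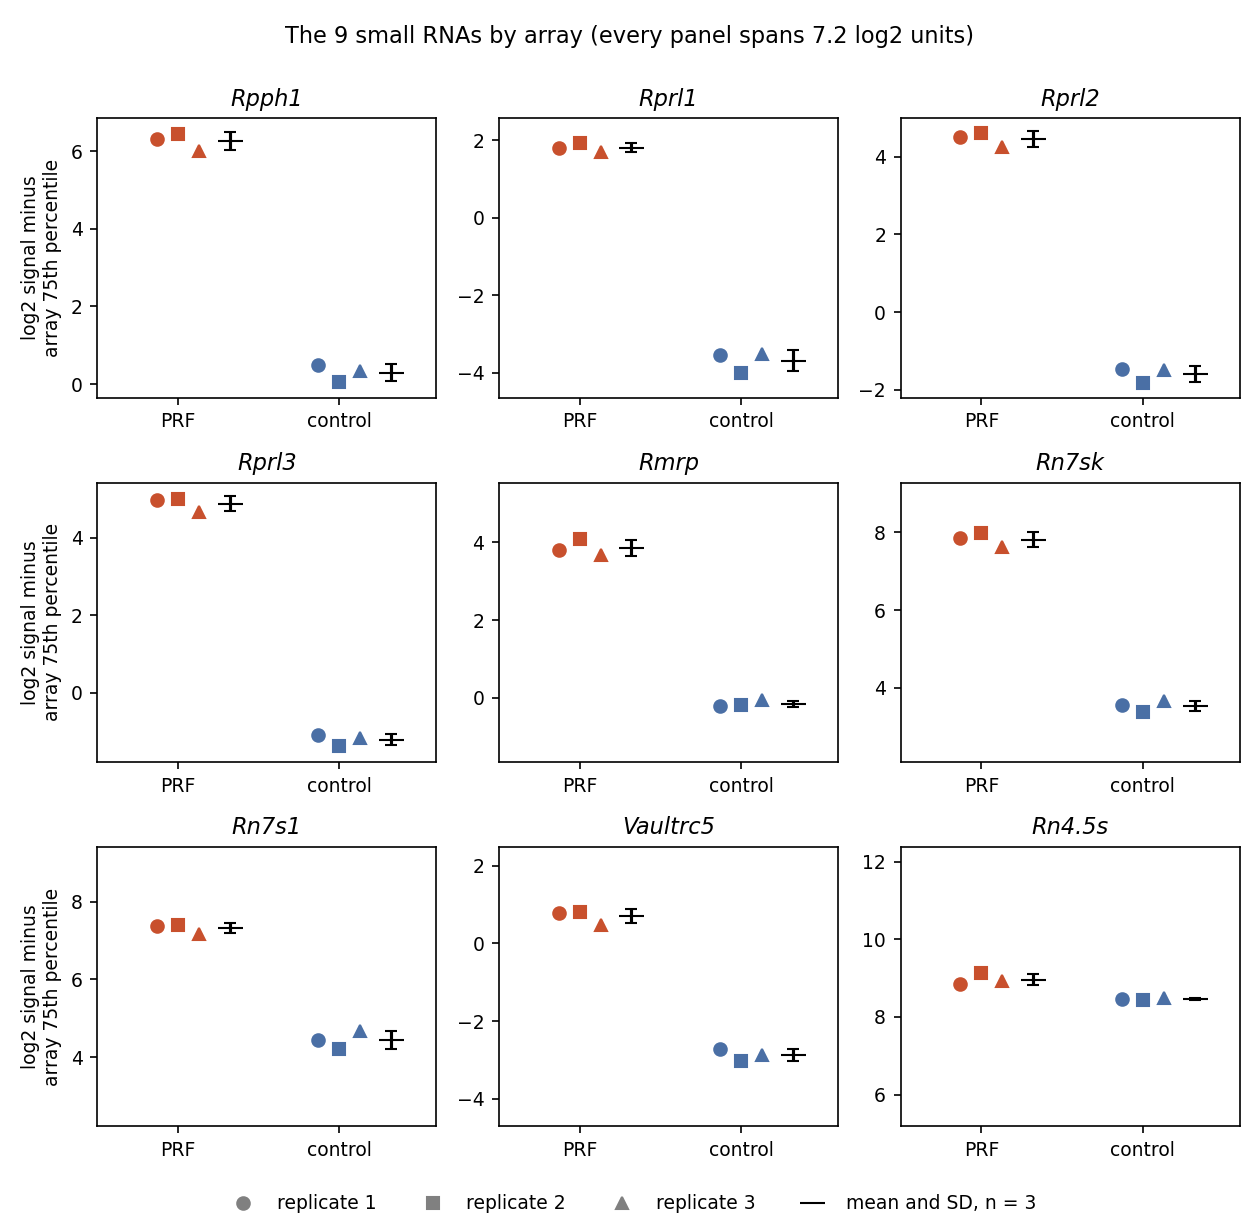
Log2 signal of each of the 9 small RNAs relative to the array's 75th percentile (vertical axes, all spanning the same distance), with PRF arrays left of control arrays, 1 point per array, and mean and SD of 3 arrays beside them. In all 9 panels the PRF points lie above the control points, with the smallest gap for Rn4.5s (0.35) and the largest for Rprl3 (5.73).

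Within a group the arrays stood in much the same order for most of the 9 RNAs. On all 9 the second PRF array was the highest of its group, and on 8 of 9 the third PRF array was the lowest. In the control group the second array was the lowest for 8 of 9. These places rest partly on the scaling. With no scaling between arrays the first PRF array was the highest for 7 of 9, while the third PRF array was the lowest for 9 and the second control array for 8. How many other probes had such an order was not counted, so it cannot be called particular to these RNAs. Outside the 9, Rnu3b1 had the order described first and Hexim1 did not. The RNase P probes may also have read 1 RNA and are then not separate observations. The standard deviations within a group ran from 0.03 to 0.27, where the median over all tested probes was 0.12 for PRF arrays and 0.10 for control arrays. The software's own error of a spot was 10.0% to 11.6% of its signal, and each RNA had 1 spot per array.

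The place of a probe within its own array does not depend on any scaling between arrays. Rpph1 was brighter than 98.4% to 98.8% of probes on PRF arrays and 75.3% to 78.0% on control arrays. Rmrp was brighter than 93.4% to 94.7% on PRF arrays and 73.7% to 74.5% on control arrays. Rprl1 was brighter than 84.6% to 85.8% on PRF arrays and 50.8% to 53.3% on control arrays. The ranges of the groups did not overlap in any of these RNAs, which was also so for Vaultrc5, at 77.9% to 79.8% on PRF arrays and 56.6% to 58.3% on control arrays.

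**Figure D2:**
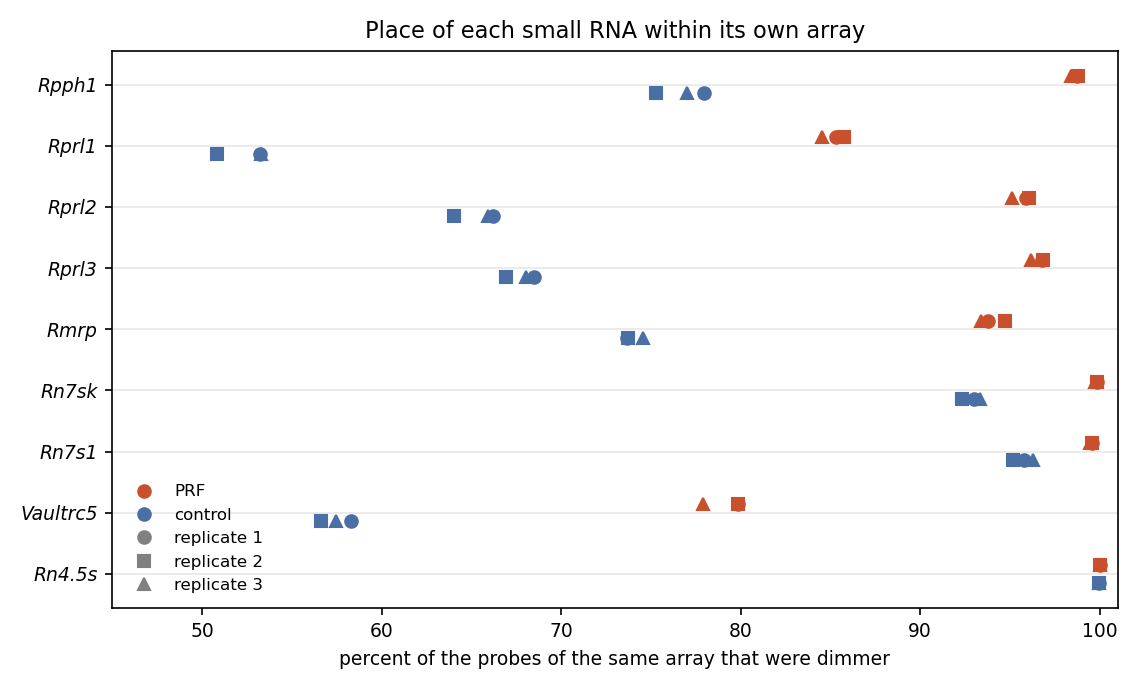
Percent of the probes of the same array that were dimmer than each small RNA's probe (horizontal axis, which starts at 45), with PRF arrays above control arrays within each row and 1 point per array. The groups are apart in every row, though Rn7sk, Rn7s1 and Rn4.5s were already bright in control cells and have little room at the right.

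The direction of all 9 differences was the same under 6 ways of scaling the arrays and when any 1 array was left out. Leaving out 1 array could not turn a sign, since every PRF array lay above every control array. As the 9 RNAs were chosen on this contrast, the steady direction is a description and no support for the differences. With array row on the slide as a block the median over the 9 genes was 4.37, against 4.40 among the 3 arrays of row 1 and 4.35 among the 3 arrays of row 2. Over all alternatives the difference of Rpph1 ran from 5.77 to 6.11, of Rmrp from 3.83 to 4.24, of Rn7sk from 4.10 to 4.40 and of Rn7s1 from 2.69 to 3.06.

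**Figure D3:**
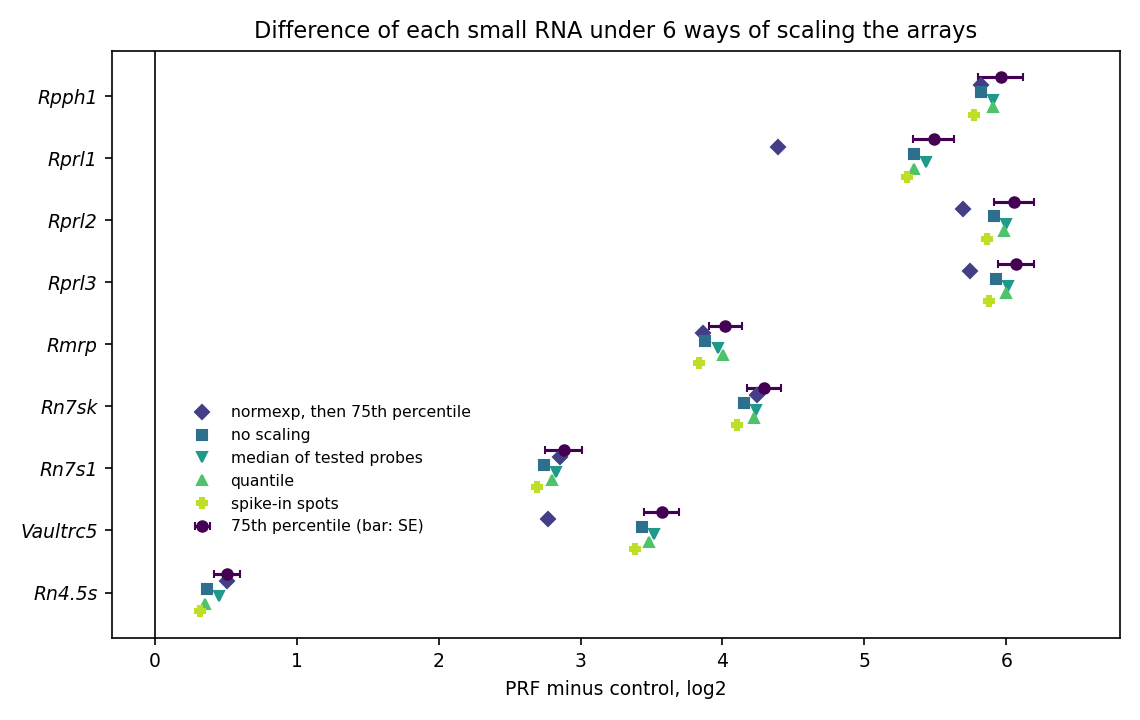
Difference between PRF and control arrays (horizontal axis, log2) of each small RNA under 6 ways of treating background and scaling, with the standard error on the value for the 75th percentile. All points lie to the right of 0, and normexp sets apart Rprl1 (4.39 against 5.49) and Vaultrc5 (2.77 against 3.57), whose control spots were near the local background.

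The coding neighbours of Rpph1 and Rmrp, whose windows are printed above, were not chosen for their values and could be tested. They were added after the files were seen. Parp2, a DNA damage-responsive ADP-ribosyltransferase gene, had levels of -0.12, -0.05 and -0.14 in PRF cells, against -0.12, -0.003 and 0.17 in control cells. The groups overlapped, and its difference of -0.12 (SE 0.09) did not pass limma's test (adjusted p = 0.343), though it did with spike-in scaling (-0.31, adjusted p = 0.0490), which moved the median of all tested probes to -0.17. Ccdc107 had levels of 3.52, 3.56 and 3.55 in PRF cells, against 3.61, 3.49 and 3.55 in control cells. Its difference was -0.01 (SE 0.06, limma adjusted p = 0.928) and its sign changed with the setting. The difference of each neighbour from the small RNA beside it was not tested.

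The proteins that bind these RNAs were compared in the same fit, with the brightest tested probe standing for a gene and limma p-values adjusted over all probes. Of all 15069 tested genes 16.3% were called higher and 13.5% lower at an adjusted p below 0.05, 29.8% in all, with a median difference of -0.01. Of 34 tested partner genes 4 rose and 4 fell, with a median of -0.04. That is 8 of 34, against 29.8% of all genes.

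Among 10 tested protein genes of RNase P and RNase MRP 4 fell and 1 rose, with a median of -0.24. Of all tested genes 13.5% fell and 16.3% rose. The brightest probe of Pop7 did not pass, but its 1 further tested probe was called lower. Rpp38, a subunit of both enzymes, averaged 0.84 ± 0.16 in PRF cells and 1.62 ± 0.02 in control cells (SD, n = 3 each), and fell by 0.78 on the log2 scale (SE 0.09, limma adjusted p = 0.00187). Rpp40 fell by 0.52 (SE 0.08, limma adjusted p = 0.00453), with levels of 0.09, -0.09 and 0.02 in PRF cells, against 0.44, 0.54 and 0.59 in control cells. Rpp25l fell by 0.52 (adjusted p = 0.0175) and Rpp14 by 0.32 (adjusted p = 0.0362), and Pop4 rose by 0.30 (adjusted p = 0.0227, all from limma). The largest of these protein gene changes was 0.78, against 4.02 or more for the RNAs of the same enzymes. Those RNAs were chosen on this contrast, so the gap in size is a description. The part of the labelling in it, described below, was not tested. The call of Rpp25l was missed without any 1 control array or without PRF replicate 2 (adjusted p from 0.0505 to 0.0625), and that of Rpp14 when control replicate 2 or 3 was left out, and likewise for PRF replicates 1 and 2 (adjusted p from 0.0811 to 0.105), with array row as a block (0.0804) and with no filter (0.0754). That of Pop4 was missed with row as a block (adjusted p = 0.0560), with no scaling (0.329), with spike-in scaling (0.309) and without any 1 control array or PRF replicate 2 (0.0546 to 0.0702).

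Of the 7 genes of the 7SK particle and P-TEFb 2 rose and 0 fell, against 16.3% and 13.5% of all tested genes. Hexim2, an inhibitor that 7SK RNA joins to P-TEFb, averaged 4.45 ± 0.18 in PRF cells and 3.58 ± 0.06 in control cells (SD, n = 3 each), a rise of 0.86 (SE 0.10, limma adjusted p = 0.00185), while its 1 further tested probe did not pass. Ccnt1, the cyclin of P-TEFb, rose by 0.35 (SE 0.08, limma adjusted p = 0.0209), a call that was missed if any 1 control array or the second PRF array was left out (adjusted p from 0.0562 to 0.0668). It was also missed with array row as a block (adjusted p = 0.0522) and when arrays were not scaled (0.146) or were scaled on spike-ins (0.194). Hexim1 had a difference of -0.03 (SE 0.10) and Larp7, which binds the end of 7SK RNA, of 0.07 (SE 0.07), and neither passed (limma adjusted p = 0.842 and 0.477). Both changed sign under some settings.

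Of 10 tested signal recognition particle genes 1 rose, Srp54b, by 0.67 (SE 0.14, limma adjusted p = 0.0158), a dim probe with levels of -2.89, -2.87 and -3.35 in PRF cells, against -3.71, -3.61 and -3.80 in control cells. Its call was missed with no scaling between arrays, with quantile normalization and when the third control array or the first or second PRF array was left out (adjusted p from 0.0515 to 0.0610). The other 9 lay between -0.13 and 0.20, and of all tested genes 16.3% rose. Of 3 vault protein genes and of 4 small RNA binding and modifying genes 0 passed by the brightest probe, against 29.8% of all tested genes. Of the 2 further tested probes of Nsun2, a gene of the latter list, 1 was called higher. The vault genes had differences of 0.16 for Mvp (SE 0.08), -0.24 for Parp4 (SE 0.08) and -0.44 for Tep1 (SE 0.14), with limma adjusted p of 0.179, 0.0702 and 0.0547, and the 1 further tested probe of Parp4 was called lower. Ssb, the La protein that binds the ends of new RNA polymerase III transcripts, had a difference of -0.10 (SE 0.06, limma adjusted p = 0.264), which passed downward with spike-in scaling.

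While 16.3% of all tested genes rose and 13.5% fell, the genes for RNA polymerase III and its initiation factors had few calls. Among the 32 tested 0 rose and 3 fell by the brightest probe, with a median of -0.11. The 3 were Polr3g, an alternative subunit, by 0.45 (SE 0.06, limma adjusted p = 0.00294, its 1 further tested probe not called), Polr3d by 0.36 (SE 0.07, adjusted p = 0.0135) and the TFIIIC subunit gene Gtf3c5 by 0.27 (SE 0.07, adjusted p = 0.0257). For some genes whose brightest probe did not pass, a further tested probe was called. It was higher for Polr3gl and Pou2f1, and lower for Polr3c, Brf1 and Snapc3. With the mean of a gene's tested probes 3 genes of this list were called higher and 6 lower. The call of Gtf3c5 was missed without each of 5 of the 6 arrays, PRF replicate 3 being the exception (adjusted p from 0.0659 to 0.0881), with array row as a block (0.0543) and with no filter (0.0528), and that of Polr3d without PRF replicate 2 (adjusted p = 0.0520). Maf1, the repressor of RNA polymerase III, had a difference of -0.07 (SE 0.07) and Brf2, an initiation factor of promoters of the Rpph1 kind, of -0.25 (SE 0.13), and neither passed (limma adjusted p = 0.505 and 0.172). Both were called lower with spike-in scaling (adjusted p = 0.0360 for Maf1 and 0.0289 for Brf2), and Brf2 also with no scaling (0.0325) and without PRF replicate 3 (0.0383). With spike-in scaling 17 genes of this list were called lower, 0 higher, where 11169 of all 34838 tested probes were called lower and 4602 higher.

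**Figure D4:**
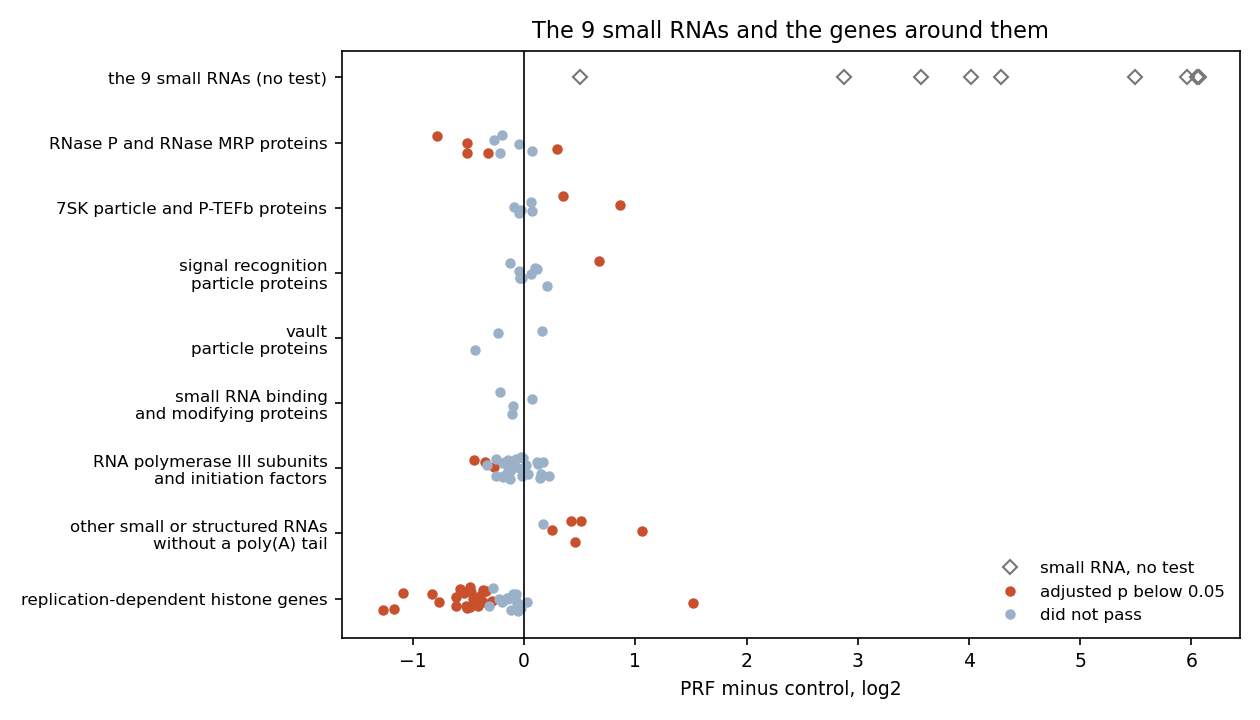
Difference between PRF and control arrays (horizontal axis, log2) of the 9 small RNAs and of each tested gene in 8 lists, 1 point per gene, orange where limma's adjusted p was below 0.05. The lists of partner and RNA polymerase III genes lie between -0.78 and 0.86, the histone genes between -1.27 and 1.51, and 8 of the 9 small RNAs, which were chosen on this contrast, lie beyond 2.8.

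Most of the 9 RNAs end without a poly(A) tail, and the labelling kit of these arrays starts its copies from a primer that pairs with poly(A). Other RNAs of that kind were therefore set beside them. Of 25 listed small or structured RNAs 7 were on the array and 6 were tested. The median of the 6 was 0.44, and 5 rose, against 16.3% of all tested genes. Rnu3b1, the U3 small nucleolar RNA, rose by 1.06 (SE 0.14, limma adjusted p = 0.00281), with levels of 2.13, 2.17 and 1.85 in PRF cells, against 1.19, 0.76 and 1.02 in control cells. The U1 RNA genes Rnu1b1 and Rnu1a1 rose by 0.46 and 0.43, the U2 RNA Rnu2-10 by 0.25 and the 28S ribosomal RNA Rn28s1 by 0.51 (adjusted p from 0.0104 to 0.0309, limma). The calls of these 4 were missed with no scaling (adjusted p from 0.0675 to 0.482) and with spike-in scaling (0.0546 to 0.570). Leaving out 1 array ended the call of Rnu2-10 for each of the 6 arrays (adjusted p from 0.0507 to 0.101), that of Rnu1a1 for control replicates 2 and 3 and PRF replicates 1 and 2 (0.0580 to 0.0649) and that of Rn28s1 for control replicate 2 (0.0529). That of Rnu3b1 was kept in each of these fits. With no scaling between arrays and with spike-in scaling 2 of these RNAs and of the histone genes together were called higher, against 6 with the 75th percentile. Of 42 tested replication-dependent histone genes, whose messengers also lack the tail, 24 fell and 1 rose, with a median of -0.36 and a range from -1.27 to 1.51. The shares over all tested genes were 13.5% lower and 16.3% higher. Whether 1 RNA reached several of the histone probes, or both U1 probes, was not tested. These counts may therefore not be of separate observations. The part of labelling in the differences of the 9 RNAs was not tested.

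Among genes that are not of this kind, the profile over the 6 arrays nearest to that of Rpph1 was that of Osm, which encodes the cytokine oncostatin M, with a root mean square distance of 0.21 on the log2 scale after subtracting each gene's control mean, over 15057 genes compared. Rab42, Obox6, Rhox6 and Sec14l4 followed at 0.39 to 0.43, and 8 genes in all lay within 0.5. Nearest to Rmrp were Ppp1r1c, Wnt8b, Podn, Ly6g6c and Neb, at 0.12 to 0.23, with 111 genes within 0.5. Nearest to Rn7sk were F10, Hhex, Ankrd34b, Gm10532 and Ddn, at 0.18 to 0.21, with 102 genes within 0.5. Of these 15 genes only Ly6g6c was well above background on the control arrays, so the profiles of the other 14 rest on control signals near background.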

How the data were processed

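The deposited intensity values came from 1-colour arrays read, per the file headers, with version 10.7.3.1 of Agilent's Feature Extraction, and the array design refers to the mm9 build. They include a background-corrected signal, a median signal, a local background and 0 or 1 flags per spot, with no scaling between arrays. The authors' deposited series table holds the same intensity values within a relative tolerance of 0.0001. The authors' own scaling and tests are not described in the sources at hand. RNA had an integrity number of at least 9.5, per the labels' protocols.

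Control spots and spots marked as outliers were left out, spots of a probe were averaged on the log2 scale (300 probes had 10 spots), and each array's 75th percentile was subtracted. Testing was limited to probes well above background on all arrays of 1 group or of both. Models were fitted with limma 3.58.1 (lmFit, eBayes) in R 4.3.3 on group alone. Adjusted p-values are Benjamini-Hochberg values over all tested probes, called below 0.05. Symbols came from RefSeq (GRCm38.p6). Of each partner list up to 4 called genes with the largest differences were named, beside Hexim1, Larp7, Ssb, Maf1 and Brf2, and, for likeness, the 5 nearest profiles. Pop4, the vault genes and the 5 called small or structured RNAs were named outside this rule, after their values were seen. The 9 RNAs and all lists were chosen with earlier results of these data known. P-values set the group difference against the spread between 3 arrays per group, which limma moderates over all tested probes. The small number of arrays limits their precision, and they do not cover variation beyond the 1 clone. The main fit did not pair arrays by replicate number. The correlations of the deviations of same-numbered arrays were 0.15, -0.08 and 0.05, against -0.17 to 0.13 for arrays of unlike number. With 3 arrays per group these values cannot show whether same-numbered arrays belong together. The fit was tested on simulated data. Alternatives were normexp (offset 50, on median signals because no mean signal is in the files), 4 other scalings, other filters, replicate and row blocks, single rows, each array left out and probe means.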

Additional observations from a re-analysis of the deposited data

How the results depend on the processing

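All 9 small RNAs stayed higher in PRF cells under all 15 alternatives run gene by gene, a direction that leaving out 1 array could not have turned. Their median difference ran from 4.10 to 4.40. It was 4.29 with the replicate number as a block, which gave 3 partner genes called higher and 4 lower and ended the calls of Pop4 (adjusted p = 0.0608), Rnu2-10 (0.0759) and Rn28s1 (0.0520). Normexp gave 4.39 for Rprl1, 5.69 for Rprl2, 5.75 for Rprl3 and 2.77 for Vaultrc5, and spike-in scaling 0.32 for Rn4.5s. Leaving out 1 array at a time gave 4768 to 6192 probes called higher and 2452 to 4492 lower, 1 to 4 partner genes higher and 2 to 7 lower, 0 RNA polymerase III genes higher and 1 to 5 lower, and 3 to 5 other RNAs without a tail (histones included) higher and 16 to 23 lower. Within row 1 these counts, in the same order, were 2672 and 537 probes, 2 and 1 partner genes, 0 and 0 polymerase genes, and 2 and 3 RNAs without a tail. Within row 2 they were 161 and 1, 0 and 0, 0 and 0, and 0 and 0, with fewer arrays in both rows. No scaling gave 4096 probes higher, 1 partner gene higher and 9 lower, 6 polymerase genes lower and 2 RNAs without a tail higher. Spike-in scaling gave 11169 probes lower, 2 partner genes higher and 16 lower, 17 polymerase genes lower and 2 RNAs without a tail higher. Partner genes called lower numbered 8 with normexp, 9 with the median of tested probes and 7 with quantile normalization, and row as a block gave 2 called higher. The median of tested probes gave 5 polymerase genes lower, and the mean of a gene's probes gave 3 higher and 6 lower. Quantile normalization gave 7309 probes lower and no filter 2805. The share of probe calls that were higher was 59.2% with the 75th percentile, 38.3% with no scaling, 49.5% with the median, 41.4% with quantile normalization and 29.2% with spike-ins, and the median of tested probes was 0.02, -0.12, -0.04, -0.06 and -0.17. The sign turned for Larp7 with no scaling (-0.0695) and spike-ins (-0.118), and for Ccdc107 with row as a block (0.0094) and within row 2 (0.0428). Leaving out 1 array at a time gave -0.0909 to 0.0466 for Hexim1, above 0 without control replicate 2 or PRF replicate 2 (0.00752), and -0.0386 to 0.0204 for Ccdc107, above 0 without control replicate 1 or PRF replicate 1 (0.000919). The cause was not tested.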
